A study of Mus musculus with 6 samples.

Results

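Periostin, the tenascins, the thrombospondins and SPARC are matricellular proteins, and the 10 genes that encode them here (Postn, Tnc, Tnn, Tnxb, Thbs1, Thbs2, Thbs3, Thbs4, Comp and Sparc) were taken by gene symbol as a family. All 10 had a row among the 57010 genes of the count table. Bulk RNA sequencing covered 3 libraries labelled as mandible derived (S16, S19 and S23) and 3 labelled as femur derived (S13, S15 and S18), all of bone marrow monocytes from untreated male and female C57BL/6 mice of 1 year (C57BL/6J in the methods). Marrow was flushed from both bones and passed through a monocyte isolation kit, in which labelled antibodies and a magnetic column hold back other marrow cells and the unbound cells are kept, so cells of any type that the antibodies do not bind can stay in the sample. The labels tie no library to an animal or a sex and do not say that the libraries of a group came from separate animals, so p-values measure the spread between these libraries, which may be technical. In bulk samples fewer cells of a type and less RNA per cell cannot be told apart.

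Matricellular proteins are secreted into the extracellular matrix, where they bind collagens, growth factors and cell surface receptors and adjust how cells attach, rather than bearing load themselves. Periostin is named for the periosteum and is a typical protein of the periodontal ligament, the collagen-rich tissue that holds a tooth in its socket. SPARC, also called osteonectin, is among the abundant non-collagen proteins of bone, and thrombospondin 1 is stored in platelets and made by monocytes and macrophages.

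Libraries held 15718782 to 25371474 counts on genes. Femur S15 stood apart: 40494 genes had at least 1 count in it, against 17481 to 23513 in the other libraries, and 13454 genes had a count in S15 alone. Mandible S23 had 25189 counts on Xist, which coats the silenced X chromosome, and none on 4 genes of the Y chromosome (Uty, Kdm5d, Ddx3y and Eif2s3y), whereas the other 5 libraries had at most 12 counts on Xist and 2772 to 4590 on those Y-linked genes together. Where S15 or S23 decides a call or most of a value of the 10 genes, the value without it is given too. A gene was called where edgeR gave an adjusted p under 0.05 and the levels differed 2-fold or more, with the femur as baseline. CPM are counts relative to the total of the library after scaling between libraries by the trimmed mean of M values (TMM), and all CPM and log2 fold changes below are on that scale.

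Of the 10 genes, 7 were called higher in mandibular-derived monocytes (Postn, Tnn, Thbs2, Thbs3, Thbs4, Comp and Sparc), none was called lower, and 3 were not called (Tnc, Tnxb and Thbs1). Over all 18114 tested genes, 3.88% were called higher and 1.30% lower. The 10 genes and the gene lists below were chosen with earlier results of these data known, so these shares only describe the family. In 8 of the 10 genes every mandible library lay above every femur library, which was so for 12.7% of all tested genes. The median log2 fold change of the 10 genes was 4.63, and that of all tested genes was -0.038. All 10 passed the filter on low counts, but Thbs4, Tnxb and Comp did so only through the mandible libraries. Their counts in S13, S15 and S18 were 0, 38 and 0 for Thbs4, 22, 151 and 0 for Tnxb and 5, 47 and 55 for Comp. Thbs4 and Comp, which were called, thus entered the test through the group in which they were higher. Counts on the 10 genes together made up 0.0316 to 0.0551% of a femur library and 0.138 to 0.256% of a mandible library. Each of the 7 called genes was called again in all 14 alternative fits, among them the 6 that each left out 1 library and 1 that left out S15 and S23 together.

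**Figure D1:**
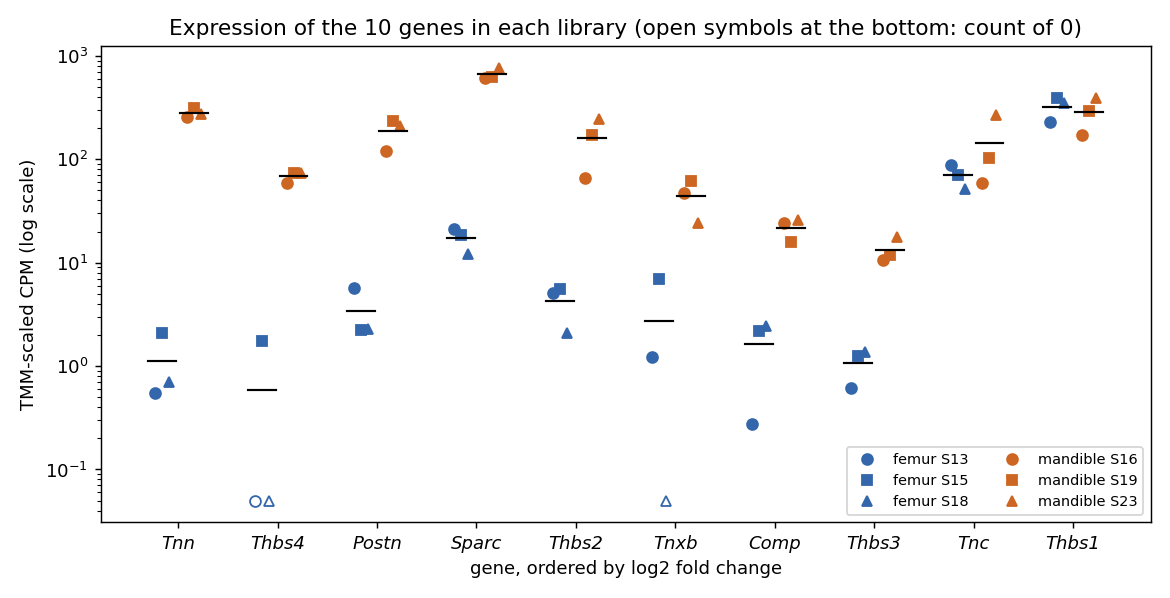
Expression of each gene in each library, in TMM-scaled CPM on a log axis, with genes ordered from left to right by log2 fold change; circles, squares and triangles are the 3 libraries of a group, black bars are group means, and open symbols at the bottom mark a count of 0. In 8 genes the mandible libraries lie above all femur libraries, while the groups overlap in Tnc and Thbs1.

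The stretches of 250 bases before the start sites of 4 of the genes are printed here, of Tnn, Thbs4 and Postn, which were called higher, and of Tnc, which was not. They come from RefSeq (GRCm38.p6), which matched 8 of the 10 genes by symbol; Thbs1 and Comp are named only. Each runs 5′ to 3′ on the strand of its gene and ends at the base before the start site. Capitals mark every match, on either strand, to a TATA box (TATAAA), an AP-1 motif (TGANTCA), a RUNX motif (TGTGGT) or an E-box (CAGATG).
Tnn, chr1:160153576-160153825, minus strand: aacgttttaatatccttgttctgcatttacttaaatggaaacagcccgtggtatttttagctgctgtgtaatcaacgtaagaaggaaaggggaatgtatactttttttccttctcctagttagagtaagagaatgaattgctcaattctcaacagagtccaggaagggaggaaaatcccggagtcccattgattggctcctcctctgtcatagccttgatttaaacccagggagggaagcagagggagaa
Thbs4, chr13:92794819-92795068, minus strand: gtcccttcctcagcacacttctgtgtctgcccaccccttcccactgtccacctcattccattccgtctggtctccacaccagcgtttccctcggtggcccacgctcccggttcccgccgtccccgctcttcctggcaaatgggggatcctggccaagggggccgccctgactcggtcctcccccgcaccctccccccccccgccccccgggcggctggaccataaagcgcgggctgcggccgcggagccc
Postn, chr3:54360857-54361106, plus strand: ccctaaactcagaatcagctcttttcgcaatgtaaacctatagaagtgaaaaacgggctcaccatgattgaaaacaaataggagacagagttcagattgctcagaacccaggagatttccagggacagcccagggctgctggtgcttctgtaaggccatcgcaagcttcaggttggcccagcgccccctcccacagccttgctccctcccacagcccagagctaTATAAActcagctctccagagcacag
Tnc, chr4:64047016-64047265, minus strand: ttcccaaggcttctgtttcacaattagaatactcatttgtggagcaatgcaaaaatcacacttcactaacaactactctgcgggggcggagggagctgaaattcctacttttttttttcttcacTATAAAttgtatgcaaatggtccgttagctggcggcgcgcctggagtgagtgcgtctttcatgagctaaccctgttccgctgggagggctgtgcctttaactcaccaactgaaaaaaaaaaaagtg

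Postn held a TATA box whose first base lay 26 bases before this start site, and Tnc held one 126 bases before. Another RefSeq start site of Postn lies upstream, and its window held none of the motifs. Another start site of Tnc lies downstream, and the same TATA box was 205 bases before it. None of the 4 motifs was found in these windows of Tnn and Thbs4. Over the 32851 promoters of the RefSeq table, the same 250-base window held a TATA box in 12.4%, an AP-1 motif in 6.75%, a RUNX motif in 14.05% and an E-box in 14.4%. In windows not printed, Sparc and Thbs3 held an E-box, Thbs2 a TATA box and Tnxb an AP-1 motif. The window of Sparc is not printed because GENCODE M21 places exons of other Sparc transcripts in it. GC content of the printed windows ran from 42.0% in Tnn to 70.8% in Thbs4.

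Periostin promotes the cross-linking of collagen fibrils. Postn lies on chromosome 3 from 54361109 to 54391037 on the plus strand (GRCm38, GENCODE M21). It had 102, 48 and 52 counts in femur libraries S13, S15 and S18 and 2422, 4969 and 3644 counts in mandible libraries S16, S19 and S23. The lowest mandible library was far above the highest femur library. Mean expression was 3.38 ± 1.95 CPM (SD, n = 3) in the femur and 189 ± 59.9 CPM (SD, n = 3) in the mandible, a 56.1-fold difference (log2 fold change 5.81, standard error 0.47, adjusted p = 5.4e-05 by edgeR).

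Of the genes of 3 tenascins, large multimeric glycoproteins, Tnn was called higher and Tnc and Tnxb were not called. Tnn encodes tenascin-W, which is found mainly in periosteum, bone and the stroma of some tumors, and lies on chromosome 1 from 160085029 to 160153580 on the minus strand. Its counts were 10, 45 and 16 in S13, S15 and S18 and 5062, 6656 and 4828 in S16, S19 and S23. With all 6 libraries Tnn had the largest log2 fold change of the 10 genes, and it rose from a femur mean of 1.11 ± 0.837 to a mandible mean of 282 ± 31.7 CPM (SD, n = 3 each). Its log2 fold change was 7.97 (standard error 0.52, adjusted p = 1.3e-05 by edgeR), which placed it at rank 37 from the top among the 18114 tested genes. Of the femur counts of Tnn, most were in S15, and without S15 the log2 fold change was 8.74, below that fitted for Thbs4, which then had no femur count.

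Tnc encodes tenascin-C, a protein of developing, injured and inflamed tissue that also occurs in the marrow matrix, and lies on chromosome 4 from 63959785 to 64047015 on the minus strand. It had 1586, 1541 and 1176 counts in S13, S15 and S18 and 1167, 2182 and 4692 in S16, S19 and S23. In CPM, mandible S16 (58.4) lay inside the femur range of 52.0 to 87.6, S19 (104) lay just above it, and S23 (268) was the highest of all. The mean was 70.2 ± 17.8 CPM over the femur libraries and 143 ± 111 CPM over the mandible libraries (SD, n = 3), a log2 fold change of 1.03 with a 95% interval from -0.0040 to 2.07 (adjusted p = 0.31 by edgeR; exact two-sided permutation test, p = 0.4). Without S23 the log2 fold change of Tnc was 0.15 and without S16 it was 1.40, and neither fit called it (adjusted p = 0.90 and 0.12 by edgeR). With no filter beyond a count in some library, the adjusted p of Tnc was 0.045 by edgeR. Its log2 fold change of 0.998 in that fit was just under 2-fold, so Tnc was not called there.

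Tnxb encodes tenascin-X, which organizes collagen fibrils in loose connective tissue, and lies on chromosome 17 from 34670535 to 34719815 on the plus strand. Its counts were 22, 151 and 0 in S13, S15 and S18 and 937, 1305 and 419 in S16, S19 and S23. The count of 0 in S18 allows up to 3 counts, or 0.133 CPM, a limit that covers counting error only. Every mandible library lay above every femur library, yet the femur libraries spread from 0 to 6.96 CPM and Tnxb was not called (log2 fold change 4.02, standard error 1.07, adjusted p = 0.057 by edgeR). It was called without S15, with a log2 fold change of 6.20 (adjusted p = 0.0031 by edgeR), and without S18, with 3.44 (adjusted p = 0.028 by edgeR). Tnxb was also called without both S15 and S23 (6.51, adjusted p = 0.0087 by edgeR), an alternative chosen after seeing the data. Over all alternatives its adjusted p ran from 5.6e-18, with no filter beyond a count in some library, to 0.21, without mandible S19. Mandible S23, the highest library for 7 of the 10 genes, was the lowest mandible library for Tnxb.

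Levels can be set beside each other between genes only per length, so CPM were divided by the exon length of the gene in kilobases (RPKM). In the femur Tnc was at 9.03 RPKM and Tnn at 0.191 RPKM, and in the mandible Tnc was at 18.5 and Tnn at 48.4 RPKM. The ratio of Tnc to Tnn per length was 119 in S13, 25.6 in S15 and 55.0 in S18. It was 0.173 in S16, 0.245 in S19 and 0.727 in S23. Tnc was thus the higher of the pair in every femur library and Tnn in every mandible library (exact two-sided permutation test of the log2 ratio, p = 0.1, the lower limit with 3 libraries in each group).

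**Figure D2:**
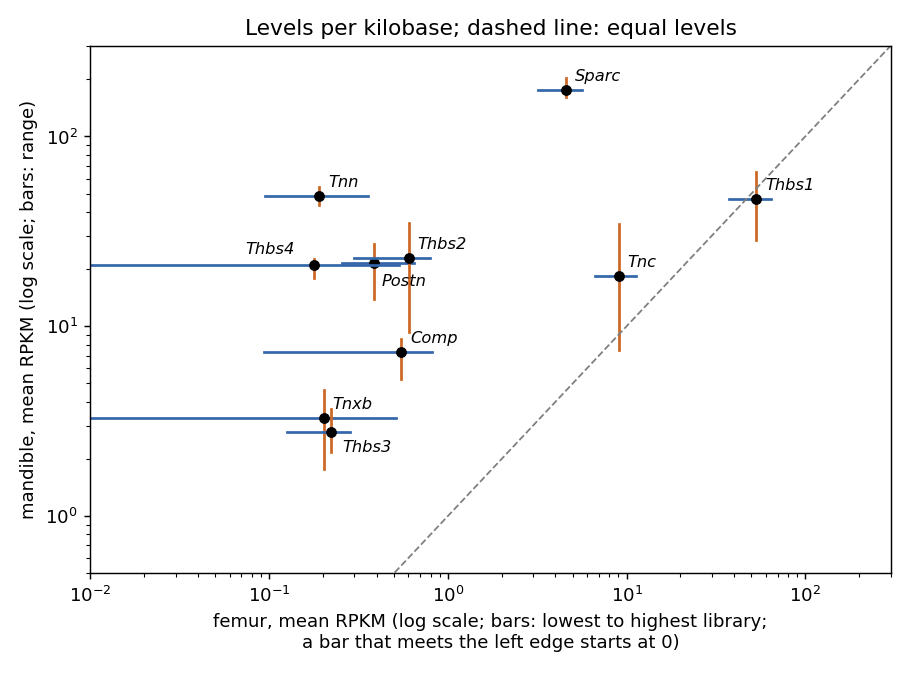
Mean level of each gene per kilobase of exon (RPKM), with the femur on the horizontal and the mandible on the vertical axis, both log scaled; bars run from the lowest to the highest library of a group and the dashed line marks equal levels. Thbs1 sits beside the line, at 53.2 RPKM in the femur and 47.1 RPKM in the mandible, and Sparc is the highest gene of the mandible at 177 RPKM.

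Thrombospondins 1 and 2 form trimers with similar domains, which limit the growth of blood vessels. Thbs1, which also activates latent TGF-β, lies on chromosome 2 from 118111876 to 118127133 on the plus strand. It had 4120, 8488 and 7932 counts in S13, S15 and S18 and 3455, 6142 and 6883 in S16, S19 and S23. The groups overlapped across nearly their whole range, 228 to 391 CPM in femur libraries against 173 to 394 in mandible libraries. The means were 323 ± 85.1 and 286 ± 111 CPM (SD, n = 3), and the log2 fold change was -0.18 with a 95% interval from -0.94 to 0.59 (adjusted p = 0.89 by edgeR; exact two-sided permutation test, p = 0.7). Thbs1 had the highest level per length of the 10 genes in the femur. Its sign turned without mandible S16 (0.089). Markers of megakaryocytes and platelets summed to 921 to 1295 CPM in femur libraries against 104 to 164 in mandible libraries, and their part in the level of Thbs1 was not tested.

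Thbs2 is made mainly by fibroblasts and other connective tissue cells and lies on chromosome 17 from 14665500 to 14694235 on the minus strand. It had 92, 120 and 47 counts in S13, S15 and S18 and 1305, 3590 and 4298 in S16, S19 and S23. All mandible libraries were above the femur, but S16 was 3.76-fold below S23. Thbs2 rose from a femur mean of 4.23 ± 1.88 to a mandible mean of 161 ± 90.7 CPM (SD, n = 3 each), a 38.0-fold difference (log2 fold change 5.25, standard error 0.55, adjusted p = 0.00032 by edgeR).

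Per length, the ratio of Thbs1 to Thbs2 was 51.6 in S13, 81.6 in S15 and 195 in S18. It was 3.05 in S16, 1.97 in S19 and 1.85 in S23. Thbs1 remained the higher of this pair in all 6 libraries, and no mandible ratio reached the lowest femur ratio (exact two-sided permutation test of the log2 ratio, p = 0.1). Such a ratio does not depend on the scaling between libraries.

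Thrombospondins 3 and 4 and COMP (cartilage oligomeric matrix protein) form pentamers and are known from cartilage, tendon, bone and muscle. All 3 genes were called higher. Thbs4, on chromosome 13 from 92751590 to 92794818 on the minus strand, had 0, 38 and 0 counts in S13, S15 and S18 and 1185, 1551 and 1301 in S16, S19 and S23. It rose from a femur mean of 0.584 ± 1.01 to a mandible mean of 69.1 ± 8.51 CPM (SD, n = 3 each), and edgeR put the log2 fold change at 6.84 with a standard error of 1.05 (adjusted p = 0.0030). S15 held every femur count of Thbs4, so without S15 only a bound can be given: against 3 counts in each of S13 and S18, Thbs4 was at least 463-fold higher in the mandible.

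Comp, on chromosome 8 from 70373558 to 70382066 on the plus strand, had 5, 47 and 55 counts in S13, S15 and S18 and 482, 330 and 447 in S16, S19 and S23. The groups stood apart in CPM as in counts, and Comp rose 13.3-fold, from a femur mean of 1.62 ± 1.17 to a mandible mean of 21.8 ± 5.35 CPM (SD, n = 3 each; log2 fold change 3.73, standard error 0.68, adjusted p = 0.0080 by edgeR). Thbs3, on chromosome 3 from 89215180 to 89226837 on the plus strand, had 11, 27 and 31 counts in S13, S15 and S18 and 210, 248 and 310 in S16, S19 and S23. Its level rose 12.3-fold, from a femur mean of 1.07 ± 0.409 to a mandible mean of 13.3 ± 3.86 CPM (SD, n = 3 each; log2 fold change 3.62, standard error 0.59, adjusted p = 0.0043 by edgeR). Thbs3 shares 318 exon bases with Mtx1, a mitochondrial import gene on the other strand, and whether the counting used strand is not given in the sources used here. For Mtx1 the femur libraries held 141 to 541 counts and the mandible libraries 147 to 387.

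Sparc lies on chromosome 11 from 55394500 to 55423183 on the minus strand. It had 384, 403 and 275 counts in S13, S15 and S18 and 12272, 13162 and 13454 in S16, S19 and S23. The mandible libraries were close to each other, within 1.25-fold, and all far above the femur. Sparc rose from a femur mean of 17.3 ± 4.66 to a mandible mean of 669 ± 86.8 CPM (SD, n = 3 each), a 38.7-fold difference (log2 fold change 5.27, standard error 0.35, adjusted p = 1.3e-05 by edgeR). It was the highest of the 10 genes per length in the mandible and the third in the femur. The ratio of Thbs1 to Sparc per length was 6.69 to 17.99 in the femur libraries and 0.176 to 0.319 in the mandible libraries.

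**Figure D3:**
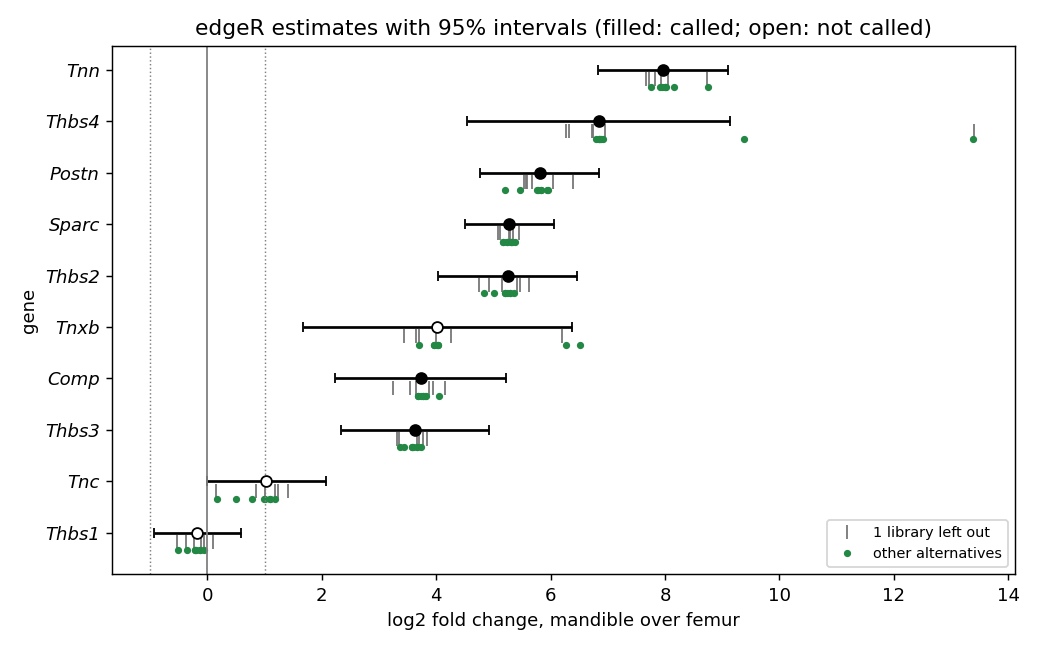
Log2 fold change of each gene, mandible over femur, with its 95% interval from edgeR (filled circles are called genes, open circles are not); grey ticks are the fits that each left out 1 library and green dots the other alternatives, and dotted lines mark 2-fold. The 7 called genes lie between 3.62 and 7.97, and the values of Thbs4 above 13 come from fits in which every femur library had a count of 0.

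Ordered by RPKM, the femur began with Thbs1 (53.2), Tnc (9.03) and Sparc (4.57), and the ranges of these neighbours did not overlap. The other 7 genes averaged 0.177 to 0.604 RPKM, from Thbs2 at the top to Thbs4 at the bottom, and each overlapped its neighbour in the order. In the mandible Sparc came first at 177 RPKM (range 162 to 203), apart from all others. Tnn (48.4), Thbs1 (47.1), Thbs2 (22.9), Postn (21.7), Thbs4 (21.01), Tnc (18.5) and Comp (7.34) followed, each with a range that overlapped the next. Tnxb (3.28) and Thbs3 (2.77) were lowest, overlapped each other and lay below Comp.

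The make-up of the counts on the 10 genes differed accordingly. Thbs1 and Tnc together took 90.1 to 95.03% of these counts in the femur libraries and 16.2 to 28.7% in the mandible libraries. The share of Sparc was 2.87 to 6.06% in femur libraries against 32.8 to 43.1% in mandible libraries. Of the mandible libraries, S16 was the lowest in 8 of the 10 genes, all but Comp and Tnxb, and S23 the highest in 7.

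**Figure D4:**
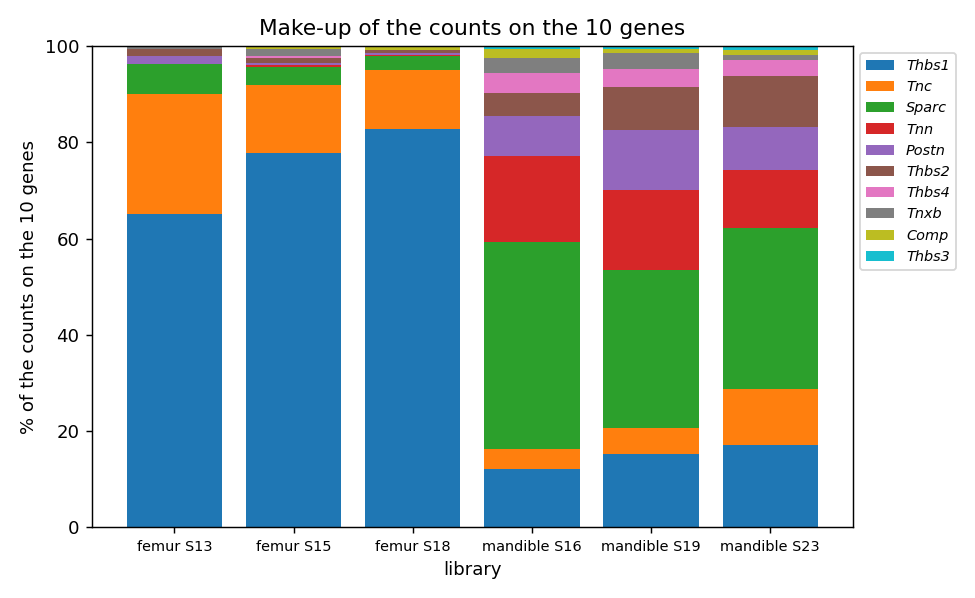
Share of each gene in the counts on the 10 genes, in percent, as stacked bars for the 6 libraries. Thbs1 takes 65.1 to 82.8% of each femur bar and 12.1 to 17.1% of each mandible bar, where Sparc, Tnn, Postn and Thbs2 take most of the rest.

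Genes were compared by root mean square distance between log2 profiles over the 6 libraries, each centred on its own mean. The candidates were 13632 genes drawn from the tested genes of at least 1 CPM, with the members of the family left out. Among these candidates, the genes nearest to Postn were Col12a1 (0.26), Col1a2 (0.40) and Ccn4 (0.48). Col12a1 and Col1a2 encode chains of collagens XII and I, and Ccn4 encodes another matricellular protein. Col12a1 was at 6.01 to 11.9 CPM in femur libraries against 189 to 398 in mandible libraries. Nearest to Sparc were Lamb3 (0.23), a chain of the laminin of epithelial basement membranes, Wif1 (0.29), a secreted WNT inhibitor, and Sp6 (0.30), a transcription factor of the dental epithelium. Nearest to Thbs1 were Dnm1l (0.10), a gene of mitochondrial fission, Zfp746 (0.11) and Fads6 (0.12), whose groups also overlapped. These distances describe 6 libraries that fall into 2 groups, so genes with a like difference between the groups lie near each other.

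Of 23 other matricellular genes, 21 were tested, 11 were called higher and none lower, and their median log2 fold change was 4.04. The most abundant was Tgfbi, a close relative of periostin with the same fasciclin domains, at 404 ± 120 CPM over the femur libraries and at 511 ± 131 CPM over the mandible libraries (SD, n = 3; log2 fold change 0.34, adjusted p = 0.72 by edgeR), which was not called. Spp1, which encodes osteopontin, rose from 45.6 ± 14.2 to 244 ± 83.2 CPM (SD, n = 3; adjusted p = 0.0024 by edgeR), and Fstl1, a SPARC relative, from 11.5 ± 3.12 to 212 ± 118 CPM (SD, n = 3; adjusted p = 0.00035 by edgeR). Ccn4, Ptn and Ccn1 had the largest log2 fold changes of the list, 7.67, 7.44 and 5.89 (adjusted p = 0.00011, 0.00098 and 0.0088 by edgeR), from means of 0.168, 0.323 and 0.451 CPM in the femur. All 21 femur counts of Ptn were in S15, and against 3 counts in each of S13 and S18 it was at least 394-fold higher in the mandible.

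Of 28 genes of cell surface receptors known to bind members of the family, 27 were tested, 6 were called higher and 2 lower, with a median log2 fold change of 0.48. The most abundant of them, Calr, Lrp1 and Itga4, were not called, and differed by 0.10, 1.61 and 0.45 on the log2 scale (edgeR, adjusted p = 0.96, 0.060 and 0.46). Lrp1, an endocytic receptor that takes up thrombospondins, was at 347 ± 223 CPM over the femur libraries and at 1058 ± 112 CPM over the mandible libraries (SD, n = 3). The largest called differences were those of Cacna2d1, a calcium channel subunit that binds thrombospondins (3.47), Vldlr (3.37), and the heparan sulfate proteoglycan Sdc4 (3.05), with adjusted p = 0.0060, 0.0015 and 0.00087 by edgeR.

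The 2 receptor genes called lower, named here after their values were seen, were Vcam1, an adhesion receptor of marrow stromal and endothelial cells, and Itgb3, a chain of the vitronectin receptor and of the platelet fibrinogen receptor. Vcam1 fell by 2.11 and Itgb3 by 1.67 on the log2 scale (adjusted p = 0.040 and 0.0051 by edgeR). Cd36 and Cd47, the receptors best known for binding thrombospondin 1, were not called, and differed by -0.70 and -0.25 on the log2 scale (edgeR, adjusted p = 0.66 and 0.76), and they too were picked after the values were seen.

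Of 30 matrix partners and processing enzymes, such as fibrillar collagens, small proteoglycans, lysyl oxidases and BMP1, 27 were tested and 22 were called higher, none lower, with a median log2 fold change of 4.26. Fibronectin (Fn1), which periostin and the tenascins bind, was the most abundant in the femur, with 2032 ± 862 CPM there against 4055 ± 1315 CPM at the other site (SD, n = 3), without being called (log2 fold change 1.00, adjusted p = 0.30 by edgeR). Col1a1, a chain of collagen I, was the most abundant in the mandible, at 32.2 ± 11.5 and 5801 ± 1160 CPM (SD, n = 3; log2 fold change 7.49, adjusted p = 1.6e-05 by edgeR). Larger still were the differences of the proteoglycan gene Fmod (8.84), with 0, 4 and 0 femur counts, and of Col3a1 (8.49; adjusted p = 0.00026 and 1.3e-05 by edgeR). Without S15 no femur count of Fmod was left, and against 3 counts in each of S13 and S18 it was at least 215-fold higher.

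Markers of other cell types moved with the mandible in the same libraries. Of 10 dental epithelium markers 8 were called higher, and their sum was 0.221 to 4.93 CPM in femur libraries against 5832 to 11440 in mandible libraries, with Odam at 0 in every femur library. Skeletal muscle markers summed to 10.5 to 31.9 CPM in femur libraries against 1148 to 3890 in mandible libraries (8 of 9 called higher), and osteoblast and osteocyte markers to 105 to 115 and 5110 to 7566 CPM (8 of 12 called higher). Col1a1, which is also among the matrix partners, carried most of the osteoblast sum, and without it the sum was 69.9 to 83.1 CPM in femur libraries against 277 to 528 in mandible libraries. Of the other osteoblast and osteocyte markers, Mepe, Sost and Dkk1 had at most 7 counts in any library. Markers of periodontal ligament and tendon fibroblasts summed to 35.1 to 43.4 CPM in femur libraries against 442 to 656 in mandible libraries, with 5 of the 11 in the table called higher. Col12a1 and Egr1, an immediate early gene, carried most of that sum, and without both it was 6.27 to 16.2 CPM in femur libraries against 67.8 to 80.5 in mandible libraries. S100a4 of this list was not called (log2 fold change -1.19, adjusted p = 0.57 by edgeR). Among the low members, Scx, a transcription factor of tendon and ligament, had at most 6 counts in any femur library and 0 to 24 in the mandible libraries, and Tnmd, the tendon gene of tenomodulin, was at 0 in every femur library and had 25 to 64 counts in the mandible libraries. Mural cell markers (4 of 9), odontoblast markers (2 of 5) and chondrocyte markers (1 of 9) also held genes called higher. Only 4 chondrocyte markers were tested, all with a log2 fold change above 0, and Col2a1 alone was called. Col2a1, at a mean of 49.5 CPM, carried most of the chondrocyte sum in the mandible libraries. Of the untested chondrocyte markers, Chad was higher in mean in the mandible and Matn1, Matn3, Cnmd and Col9a1 were lower, all near 0 to 1.08 CPM. The part of all these cell types in the values of the 10 genes was not tested.

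Of 14 megakaryocyte and platelet markers 11 were called lower and none higher, with a median log2 fold change of -3.18. Erythroid genes (4 of 7 lower) and neutrophil genes (1 of 9 lower) held no gene called higher. Of 10 marrow stromal markers 2 were called higher and 1 lower, with a sum of 247 to 433 CPM in femur libraries against 188 to 409 in mandible libraries. None of the 9 endothelial, 7 Schwann cell, 5 B cell and 6 T and NK cell markers was called by edgeR, and 0, 1, 0 and 1 of them had an unadjusted p under 0.05. Of the 13 monocyte markers none was called, 2 had an unadjusted p under 0.05, and the sum was 10824 to 17624 CPM in femur libraries against 9651 to 17141 in mandible libraries. Lyz2 (femur mean 7662 CPM, mandible mean 6136 CPM) and Fn1 made up most of that sum, Ccr2 was, in the same order, at 660 and 668 CPM and Csf1r at 245 and 385 CPM, and the lowest markers were Cd14 (21.5 and 25.3 CPM) and S100a4 (5.92 and 2.60 CPM).

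**Figure D5:**
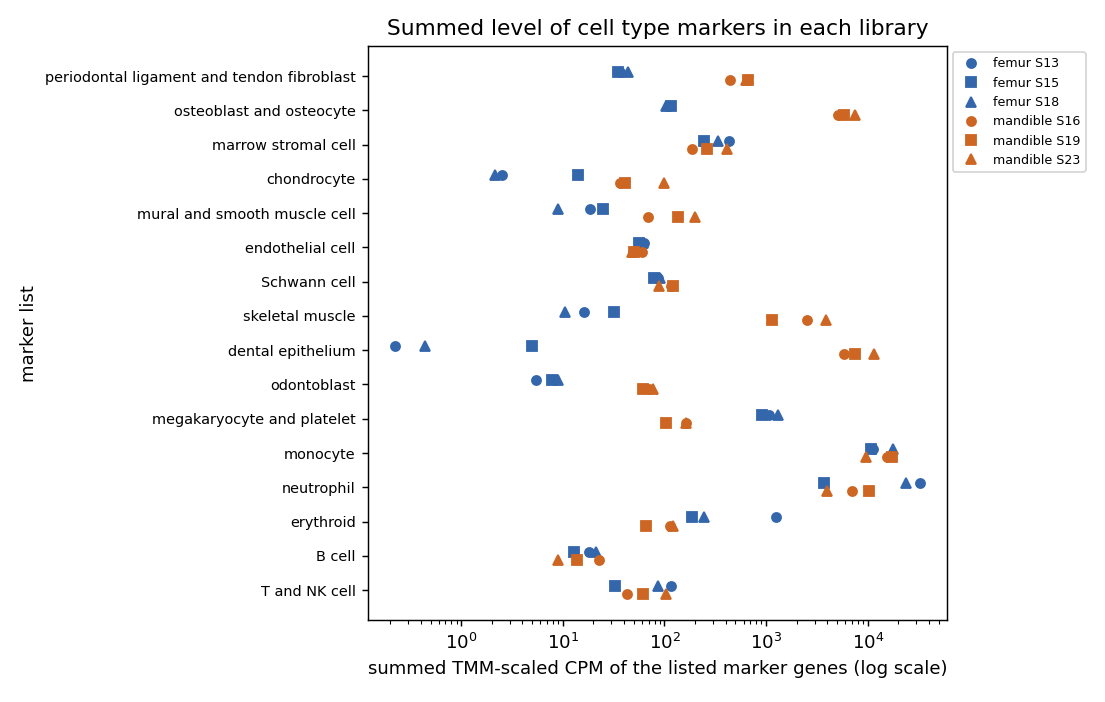
Summed TMM-scaled CPM of 16 lists of cell type markers, 1 point per library, on a log axis. The 2 groups lie apart for dental epithelium, skeletal muscle, osteoblast, odontoblast, mural, chondrocyte and periodontal ligament or tendon markers (mandible higher) and for megakaryocyte and erythroid markers (femur higher), and overlap for monocyte markers. The chondrocyte sum of the mandible libraries is mostly Col2a1.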

How the data were processed

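RNA of femur-derived and mandibular-derived monocytes was sequenced in paired-end reads of 6 libraries. Per the labels and the methods, the authors trimmed the reads with Trimmomatic, mapped them with HISAT2 2.1.0 to GRCm38 and deposited raw counts of reads per gene from featureCounts, with no normalization. The handling of strand and of reads with several positions is not given in the sources used here. The table's own coordinates were not used, because they fell inside the GENCODE M21 gene (GRCm38) for only 3016 of 52029 shared identifiers; the positions given are those of M21. Exon lengths are those of the table.

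Counts were filtered with filterByExpr (minimum count 10, minimum total count 15), scaled by TMM and tested in R 4.3.3 with edgeR 4.0.16 (quasi-likelihood test, Benjamini-Hochberg adjustment over 18114 genes, no covariates). Standard errors were derived as the absolute log2 fold change divided by the square root of the quasi-likelihood F statistic. Intervals are 95% from these standard errors and the moderated t quantile. Permutation tests used log2(CPM + 0.5). A count of 0 was read as up to 3 counts, 0.133 to 0.172 TMM-scaled CPM per library.

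Named genes were the 10 members and, in each pathway list, at most 3 of the highest mean CPM and at most 3 called genes of the largest absolute log2 fold change. Members and lists were chosen with earlier results of these data known. The alternatives were DESeq2 1.42.0, limma-voom (limma 3.58.1), RLE size factors, no normalization factors, 2 other filters, removal of each library's trend with gene length (loess, span 0.4), and libraries left out.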

Additional observations from a re-analysis of the deposited data

How the results depend on the processing

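Of the 10 genes, 7 or 8 were called higher and 0 lower in every alternative run, and the gene that was called in some of them was Tnxb, which was called with no filter beyond a count in some library (log2 fold change 4.02), under limma-voom (6.27), after the length trend was removed (3.69), without femur S15 (6.20), without femur S18 (3.44) and without both S15 and mandible S23 (6.51). Leaving out 1 library moved the log2 fold change of Thbs1 between -0.53 (without mandible S23) and 0.089 (without mandible S16, which reversed its sign). Over all genes, 938 were called, against 1590 without that filter and 1548 under DESeq2; the cause was not tested. Leaving out 1 library gave 434 (without mandible S19) to 1565 calls (without femur S15), and removing S13, S18 or S23 gave 509, 552 and 551. The median log2 fold change of all tested genes was -0.038 under TMM, -0.0084 under RLE and 0.061 without normalization factors. No paired analysis was possible because no label ties a library to an animal, so whether the groups share animals is not known. With 3 libraries a group, exact tests cannot give a p below 0.1, and Thbs4, Tnxb and Tnn rest on few femur counts, most of them in S15. Thbs3 (11, 27 and 31 counts in S13, S15 and S18) and Comp (5, 47 and 55) also rest on few femur counts. No library carries a label for sex, and S23 alone differed in sex-linked genes.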
